A study of Mus musculus with 18 samples.

Results

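The 10 genes described here, Cdh5, Pecam1, Kdr, Tek, Tie1, Emcn, Flt1, Eng, Esam and Cldn5, encode proteins of the endothelium, the cell layer that lines blood vessels. They were chosen by name, with earlier results of these data known, from 19938 genes that have a probe set naming only that gene. Each of the 10 has 1 such probe set on the array. Their RNA was measured in bone marrow adipocytes and in epididymal adipocytes of male C57BL/6J mice at 6, 14 and 18 months of age. Marrow flushed from femurs and tibias, with red cells lysed, gave the bone marrow adipocytes, and collagenase-digested epididymal fat of the same mice gave the epididymal adipocytes. Both were collected by floating and were not sorted, and no engineered allele or drug is named for the mice. The sample labels call the epididymal cells peripheral adipocytes, and these were taken as the same cells. Each of the 6 groups has 3 arrays, each of RNA pooled from several animals, so the error is the spread between pools and not between mice. Values are log2 expression, so a difference of 1 is a 2-fold difference.

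Endothelial cells hold together through cadherins, claudins and immunoglobulin-like adhesion proteins, and sense growth factors through receptor kinases of the VEGF and angiopoietin families. In fat, capillaries run beside every adipocyte and deliver lipid to it, while bone marrow vessels are wide sinusoids and arterioles through which blood cells leave. Several of the 10 genes are not limited to vessels: Pecam1 is carried by platelets and many white cells, Esam by platelets, and Tek, Eng, Emcn and Esam by mouse blood stem cells.

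Floated cells of both sources held RNA of other cell types. The mean of 8 adipocyte markers lay between 6.31 and 7.26 on the bone marrow arrays and between 12.36 and 12.78 on the epididymal arrays. Plin1, the lipid droplet coat protein of adipocytes, spanned 5.40 to 6.74 in bone marrow, where the medians of all 18 arrays lay between 5.33 and 5.65, and 12.18 to 12.70 in epididymal cells. The mean of 10 neutrophil markers lay between 11.56 and 12.22 in bone marrow and between 4.98 and 8.71 in epididymal cells, where replicate 1 at 6 months held the 8.71. Replicates spread most in bone marrow at 6 months, where the SD of the typical probe set was 0.22, against 0.097 to 0.14 in the other groups. In such preparations fewer endothelial cells and less RNA per endothelial cell cannot be told apart, and neither can age and the handling of an age group.

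Promoter windows were on hand for 7 of the 10 genes (RefSeq, build GRCm38.p6, 250 bases before to 50 bases after the gene's start), and not for Cdh5, Pecam1 and Esam. Printed are those of Tek and Eng, with the greatest gain in epididymal adipocytes at 14 months, and Flt1 and Cldn5, with the lowest differences. They are read 5′ to 3′ on the gene's strand, and capitals mark matches on either strand to AGGAAG (ETS factor core), AGATAA (core of GATA factors) and ACAAT (SOX factor core).
Tek (chr4:94739039-94739338, plus strand): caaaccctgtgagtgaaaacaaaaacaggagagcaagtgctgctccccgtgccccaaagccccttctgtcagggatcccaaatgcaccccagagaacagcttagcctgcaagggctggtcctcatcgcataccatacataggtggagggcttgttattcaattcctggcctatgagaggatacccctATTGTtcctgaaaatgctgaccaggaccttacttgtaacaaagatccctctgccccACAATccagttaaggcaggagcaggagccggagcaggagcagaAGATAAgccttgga
Eng (chr2:32646345-32646644, plus strand): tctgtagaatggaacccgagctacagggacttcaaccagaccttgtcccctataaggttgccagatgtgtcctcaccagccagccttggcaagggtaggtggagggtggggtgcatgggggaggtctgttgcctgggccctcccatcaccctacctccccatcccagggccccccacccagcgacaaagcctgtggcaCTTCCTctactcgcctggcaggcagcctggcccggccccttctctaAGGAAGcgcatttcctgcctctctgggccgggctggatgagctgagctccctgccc
Flt1 (chr5:147725962-147726261, minus strand): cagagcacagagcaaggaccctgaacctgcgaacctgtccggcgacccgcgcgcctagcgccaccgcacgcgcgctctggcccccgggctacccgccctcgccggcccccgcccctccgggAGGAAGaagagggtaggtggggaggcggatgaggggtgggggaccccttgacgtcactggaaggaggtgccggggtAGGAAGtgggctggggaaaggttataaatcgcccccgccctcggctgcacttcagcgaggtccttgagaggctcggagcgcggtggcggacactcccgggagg
Cldn5 (chr16:18776597-18776896, plus strand): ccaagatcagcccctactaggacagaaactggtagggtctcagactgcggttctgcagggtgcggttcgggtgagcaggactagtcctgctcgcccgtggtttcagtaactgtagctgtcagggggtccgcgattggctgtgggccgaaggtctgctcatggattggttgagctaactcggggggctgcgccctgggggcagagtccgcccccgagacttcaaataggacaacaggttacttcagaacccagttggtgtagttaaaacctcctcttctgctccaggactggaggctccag
The Eng and Flt1 windows each held AGGAAG on 2 sites, the Tek window held ACAAT on 2 sites and AGATAA on 1, and the Cldn5 window held none of the 3 motifs. No match overlapped another. Over the 7 windows AGGAAG was found in 4 (Eng, Flt1, Emcn and Tie1), ACAAT in 2 (Tek and Emcn) and AGATAA in 1. Of all 32851 windows of that length, 35.4% held AGGAAG, 31.0% ACAAT and 11.2% AGATAA.

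Over the ages the junction genes Cldn5, Cdh5 and Esam were lower in bone marrow, by the widest margin for Cldn5. Cldn5, the main claudin of endothelial tight junctions, was at 7.27, 7.25 and 6.95 in bone marrow adipocytes at 6 months, at 6.75, 6.00 and 6.01 at 14 months and at 6.42, 6.49 and 6.71 at 18 months. Its epididymal values were 10.33, 10.54 and 10.55 at 6 months, 9.84, 9.96 and 10.40 at 14 months and 8.43, 8.82 and 8.65 at 18 months. Every bone marrow array lay below every epididymal array. Over the ages Cldn5 was 8.42-fold lower in bone marrow (log2 difference -3.07, standard error 0.11, adjusted p = 4.48e-15, limma over all probe sets that name a gene). Its gap was 9.97-fold at 6 months, 14.0-fold at 14 months and 4.27-fold at 18 months.

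Cdh5, the VE-cadherin of adherens junctions and the gene most used to define endothelium, was at 7.72, 7.60 and 6.72 in bone marrow at 6 months, at 6.41, 5.47 and 5.69 at 14 months and at 5.21, 6.03 and 5.74 at 18 months. In epididymal adipocytes it was at 9.10, 9.24 and 9.06, then at 9.74, 9.67 and 9.59, and at 18 months at 7.96, 8.09 and 8.11. The 2 cell types did not overlap on any array, and bone marrow at 6 months lay above bone marrow at both later ages. Cdh5 was 6.34-fold lower in bone marrow over the ages (log2 difference -2.66, standard error 0.14, adjusted p = 2.73e-12). The gap widened to 14.0-fold at 14 months, against 3.45-fold at 6 months and 5.26-fold at 18 months.

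Esam, an adhesion molecule of endothelial junctions and platelets, was at 7.37, 6.46 and 6.83 in bone marrow at 6 months, at 6.29, 5.68 and 5.67 at 14 months and at 5.96, 6.10 and 6.40 at 18 months. The epididymal arrays gave 7.86, 8.09 and 8.05, then 8.85, 8.74 and 8.87, and at 18 months 6.99, 6.85 and 6.84. Within each age the bone marrow arrays lay below the epididymal ones, but 6-month bone marrow overlapped 18-month epididymal cells. The Esam gap was 7.68-fold at 14 months (adjusted p = 2.07e-10), against 2.16-fold at 6 months and 1.67-fold at 18 months. At 18 months it passed the test (adjusted p = 0.00334) but not the 2-fold limit, and without bone marrow replicate 2 the 6-month difference of -0.90 also fell short of that limit.

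Pecam1, which encodes CD31 on endothelium, platelets and white cells, was the only junction gene whose difference between the cell types changed sign with age. In bone marrow it was at 7.92, 8.18 and 8.19 at 6 months, at 8.65, 8.17 and 8.38 at 14 months and at 7.87, 7.89 and 7.89 at 18 months. In epididymal adipocytes it was at 8.78, 8.85 and 8.74, then at 9.69, 9.79 and 9.68, and at 18 months at 7.75, 7.76 and 7.69. Bone marrow lay below epididymal cells at 6 and 14 months and slightly above them at 18 months. The Pecam1 difference was -0.70 at 6 months (adjusted p = 4.22e-05), -1.32 at 14 months (adjusted p = 1.19e-08) and 0.15 at 18 months (95% interval -0.09 to 0.39, adjusted p = 0.330). When arrays were scaled to equal ribosomal protein genes the 18-month value was -0.50, so its direction there rests on the scaling.

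The VEGF receptors were lower in bone marrow at every age. Kdr, the principal signalling receptor for VEGF-A, was at 6.37, 7.34 and 6.87 in bone marrow at 6 months, at 6.92, 5.54 and 5.62 at 14 months and at 5.64, 5.97 and 5.87 at 18 months. Its epididymal values were 8.70, 8.84 and 8.60, then 9.56, 9.31 and 9.36, and at 18 months 7.76, 7.88 and 7.73. No bone marrow array reached the epididymal range, and bone marrow replicate 1 at 14 months stood over 1 unit above the other two. Kdr was 5.28-fold lower in bone marrow over the ages (log2 difference -2.40, standard error 0.16, adjusted p = 5.91e-11), with gaps of 3.62-fold, 10.4-fold and 3.89-fold at 6, 14 and 18 months.

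Flt1, the VEGF receptor that binds tightly but signals weakly, was at 6.47, 7.02 and 6.53 in bone marrow at 6 months, at 6.54, 6.45 and 6.62 at 14 months and at 6.30, 6.12 and 5.84 at 18 months. In epididymal adipocytes it was at 8.52, 8.66 and 8.69, then at 8.63, 8.84 and 8.66, and at 18 months at 7.42, 7.21 and 7.19. The lowest epididymal array stood above the highest one from bone marrow. Flt1 was 3.41-fold lower in bone marrow over the ages (log2 difference -1.77, standard error 0.083, adjusted p = 3.91e-13). In each cell type its 6-month and 14-month arrays overlapped and its 18-month arrays lay lower.

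The angiopoietin receptor pair was also lower in bone marrow over the ages. Tek, the receptor TIE2, was at 6.27, 6.51 and 6.45 in bone marrow at 6 months, at 5.75, 5.20 and 5.47 at 14 months and at 5.64, 5.96 and 5.50 at 18 months. It was at 7.96, 7.83 and 7.83 in epididymal adipocytes at 6 months, at 9.38, 9.63 and 9.45 at 14 months and at 6.94, 7.05 and 7.15 at 18 months. The epididymal ages formed 3 separate levels, all above every bone marrow array. At 14 months Tek was 16.1-fold lower in bone marrow (log2 difference -4.01, standard error 0.14, adjusted p = 3.21e-14), the widest gap of the 10 genes at any age. It was 2.76-fold lower at 6 months and 2.55-fold lower at 18 months. The 14-month bone marrow values of Tek lay near the array medians of 5.33 to 5.65.

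Tie1, the partner receptor that modulates TIE2, was at 6.81, 7.22 and 7.32 in bone marrow at 6 months, at 6.64, 5.95 and 5.99 at 14 months and at 6.32, 6.61 and 6.95 at 18 months. The epididymal arrays gave 7.92, 8.28 and 8.09, then 8.57, 8.82 and 8.76, and at 18 months 7.02, 6.89 and 7.02. Bone marrow lay below epididymal cells at 6 and 14 months, while the groups overlapped at 18 months. Tie1 was 5.75-fold lower in bone marrow at 14 months (adjusted p = 1.06e-09). Its 6-month gap of 1.97-fold passed the test (adjusted p = 0.000185) but lay just under the 2-fold limit. It passed that limit without bone marrow replicate 2 or 3 or epididymal replicate 1, with differences from -1.08 to -1.03. At 18 months the difference was -0.35 (95% interval -0.74 to 0.04, adjusted p = 0.137).

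Eng, endoglin, a co-receptor for TGF-beta and BMP9 on endothelium, was at 8.30, 8.21 and 7.45 in bone marrow at 6 months, at 7.61, 7.05 and 7.00 at 14 months and at 7.06, 7.36 and 7.36 at 18 months. In epididymal adipocytes it was at 8.15, 8.36 and 8.26, then at 9.56, 10.02 and 9.56, and at 18 months at 7.23, 7.34 and 7.14. The cell types overlapped at 6 and at 18 months and lay far apart at 14 months. Eng was 5.62-fold lower in bone marrow at 14 months (log2 difference -2.49, standard error 0.20, adjusted p = 3.77e-09). The difference was -0.27 at 6 months (95% interval -0.69 to 0.16, adjusted p = 0.314) and 0.02 at 18 months (95% interval -0.40 to 0.44, adjusted p = 0.952). With ribosomal protein genes set equal these last 2 became -1.13 and -0.63, under a scaling that also lowered the median difference of all probe sets over the ages.

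Emcn, endomucin, a sialomucin of capillary and venous endothelium and of marrow sinusoids, was at 7.81, 6.57 and 6.15 in bone marrow at 6 months, at 5.93, 4.99 and 5.23 at 14 months and at 5.16, 5.21 and 4.99 at 18 months. Its epididymal values were 7.10, 6.90 and 6.60, then 8.13, 8.13 and 7.28, and at 18 months 6.50, 6.51 and 6.29. Bone marrow replicate 1 at 6 months was the highest bone marrow array and exceeded the 6-month epididymal arrays, while at 14 and 18 months the cell types did not overlap. The Emcn difference was -0.02 at 6 months (95% interval -0.70 to 0.65, adjusted p = 0.965), -2.46 at 14 months (adjusted p = 2.61e-06) and -1.32 at 18 months (adjusted p = 0.00193).

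**Figure D1:**
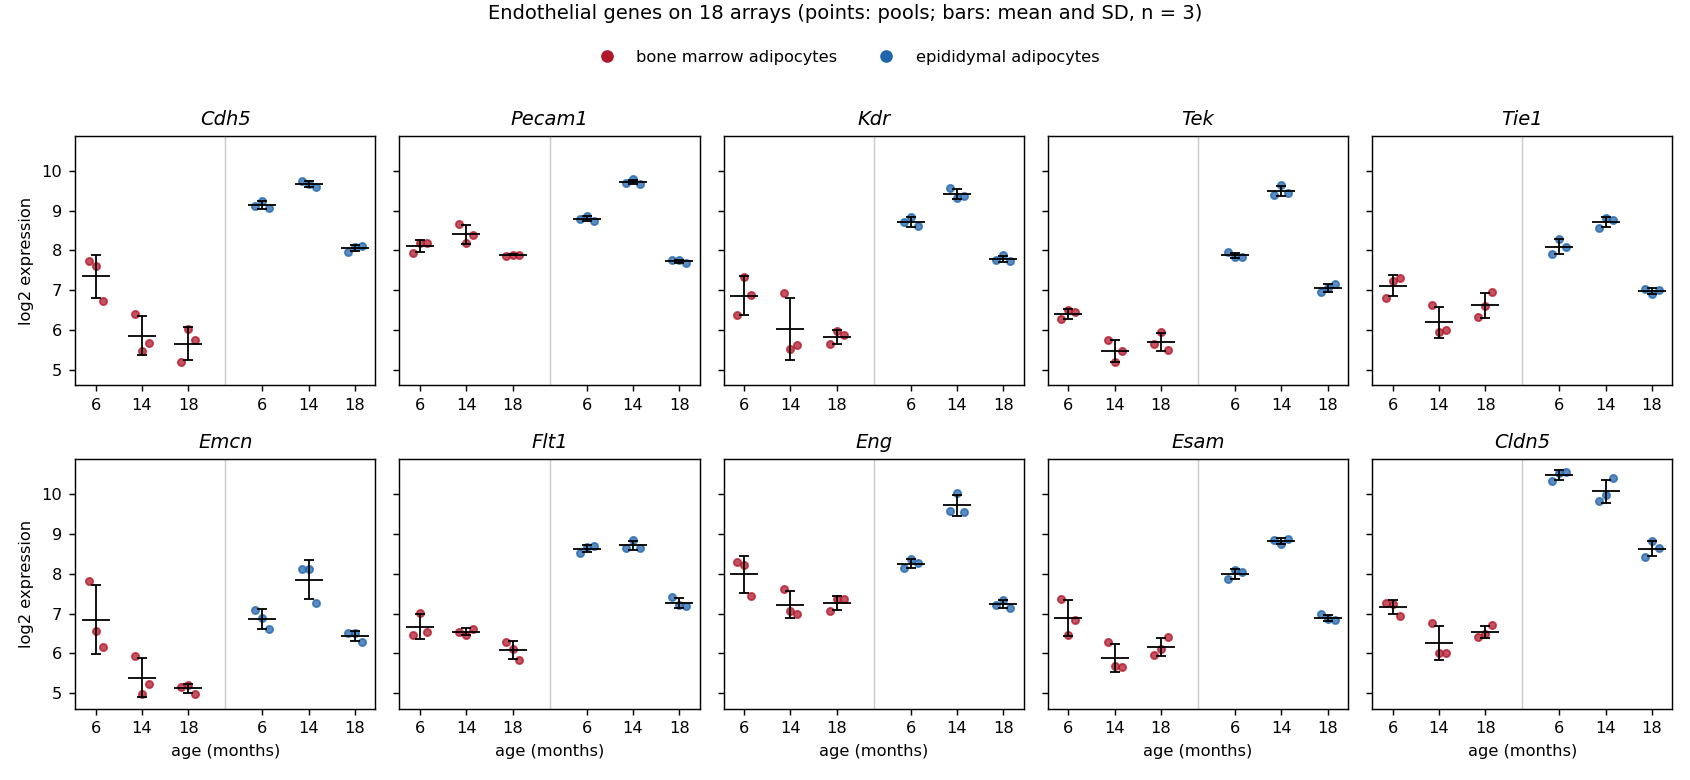
Log2 expression of the 10 endothelial genes (y axis) by age in months (x axis) on 9 bone marrow arrays (red, left) and 9 epididymal arrays (blue, right), with the mean and SD of each group (n = 3 pools). In epididymal adipocytes 9 of the 10 genes had their highest mean at 14 months and all 10 had their lowest at 18 months, while in bone marrow 9 had their highest mean at 6 months.

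Counted together, 8 of the 10 genes were called lower in bone marrow over the ages (a 2-fold difference or more and an adjusted p below 0.05), and none was higher. Of all 23410 probe sets that name a gene, 11.6% were lower and 10.2% higher by the same rule. Pecam1 (-0.62) and Eng (-0.91) passed the test but not the 2-fold limit. Their median difference was -1.68, against -0.02 over all probe sets tested. At single ages 6 of 10 were lower at 6 months (background 11.8%), 10 at 14 months (11.5%) and 6 at 18 months (12.9%). All 10 had their largest difference at 14 months. Setting ribosomal protein genes equal moved the median difference of all probe sets over the ages to -0.72 and placed 6176 of them, and all 10 genes, lower in bone marrow.

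**Figure D2:**
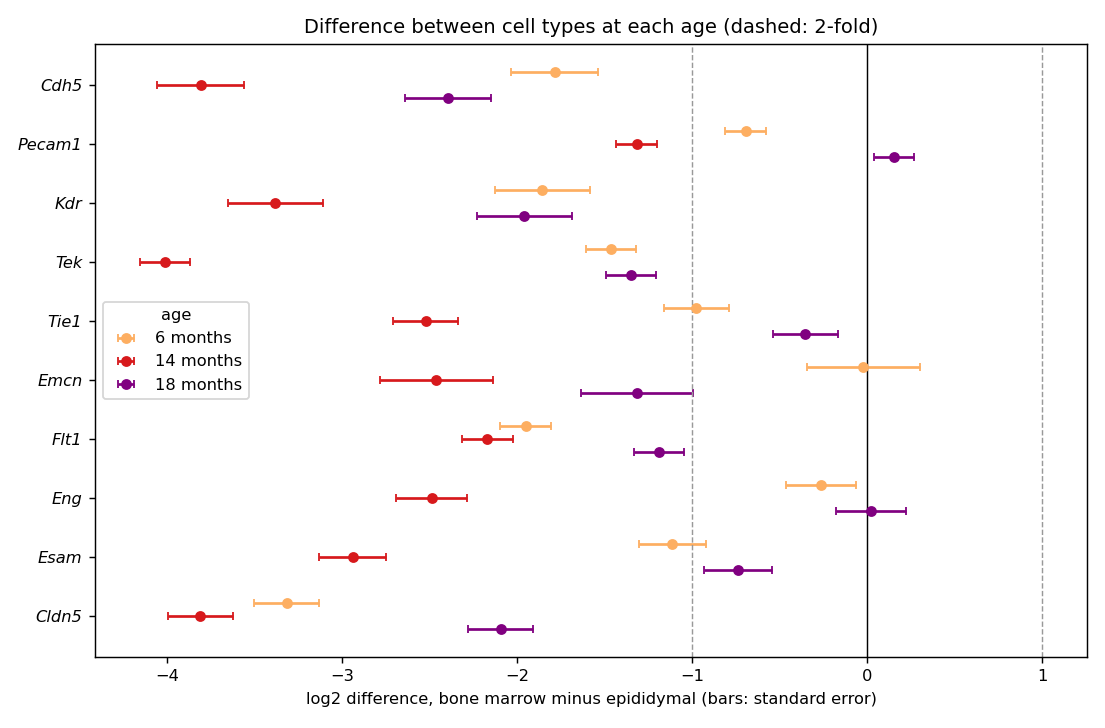
Log2 difference of bone marrow minus epididymal adipocytes (x axis, points, with standard error) for the 10 genes (y axis) at 6, 14 and 18 months, with dashed lines at 2-fold. The 14-month points all lie beyond -1, and reach -4.01 for Tek, while Eng lies near 0 at 6 and 18 months.

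In epididymal adipocytes 9 of the 10 means were higher at 14 than at 6 months, all but that of Cldn5. At 14 months 6 of 10 rose over 6 months with an adjusted p under 0.05 (background 10.2% higher, 7.51% lower), and none fell. Tek rose 3.07-fold (log2 difference 1.62, standard error 0.14, adjusted p = 1.39e-07) and Eng 2.75-fold (1.46, adjusted p = 3.43e-05). Smaller rises passed for Pecam1 (0.93), Esam (0.82), Emcn (0.98, adjusted p = 0.0417) and Tie1 (0.62, adjusted p = 0.0248). Cdh5 and Kdr did not pass, with 0.53 (adjusted p = 0.162) and 0.69 (adjusted p = 0.0920). Their 6-month and 14-month arrays did not overlap, as was so for 17.3% of all probe sets in that direction. Flt1 was at 0.09 (95% interval -0.22 to 0.39) and Cldn5 at -0.41 (95% interval -0.80 to -0.01, adjusted p = 0.158).

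Not all of these calls were firm. Emcn lost its call when any of 11 of the 18 arrays was left out, at adjusted p between 0.0508 and 0.163. These were epididymal replicates 2 and 3 at 6 months, 1 and 2 at 14 months and all 3 at 18 months, and bone marrow replicate 3 at 14 months and all 3 at 18 months. Tie1 lost it without epididymal replicate 1 or 3 at 6 months or 2 or 3 at 14 months (adjusted p 0.0660 to 0.0947). Kdr gained a call without bone marrow replicate 1 at 14 months (adjusted p = 0.0106). With array medians set equal 5 genes rose and Cldn5 fell (-0.53, adjusted p = 0.0418), where 7.74% of all probe sets rose and 15.1% fell. With ribosomal protein genes set equal 3 rose and Cldn5 fell (-0.64, adjusted p = 0.0394), where 5.57% rose and 20.3% fell. Flt1 was slightly negative under both scalings, at -0.04 and -0.14.

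At 18 months the epididymal genes fell together. Against 6 months 9 of 10 were lower (background 8.01%), led by Cldn5 with a 3.58-fold fall (log2 difference -1.84, standard error 0.19, adjusted p = 2.07e-06) and Flt1 with a 2.55-fold fall (-1.35, adjusted p = 3.74e-06). Cdh5 (-1.08), Pecam1 (-1.06), Tie1 (-1.12), Esam (-1.11) and Eng (-1.02) each fell about 2-fold, and Tek (-0.82) and Kdr (-0.93) less. Emcn was at -0.43 (95% interval -1.11 to 0.25, adjusted p = 0.404). Its groups did not overlap, as was so for 23.1% of all probe sets in that direction. Kdr (adjusted p = 0.0255) lost its call without epididymal replicate 2 or 3 at 6 months or any epididymal replicate at 18 months (adjusted p 0.0574 to 0.0882). Against 14 months all 10 were lower (background 12.5%), from 2.66-fold for Emcn to 5.56-fold for Eng, and no array of one age reached the other, as was so for 23.1% of all probe sets in that direction. These comparisons share the 6-month or the 14-month arrays with those above and are not independent of them.

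In bone marrow most of the genes fell after 6 months, several of them to values near the array medians of 5.33 to 5.65. Emcn lay at 4.99 to 5.21 and Cdh5 reached 5.21 at 18 months, and Tek reached 5.20 and Kdr 5.54 at 14 months. By comparison the lowest bone marrow value was 7.00 for Eng and 7.87 for Pecam1. How closely values near the medians follow the amount of RNA was not tested. At 14 months 7 of 10 were lower than at 6 months (background 3.58%), with Cdh5 2.81-fold lower (log2 difference -1.49, standard error 0.25, adjusted p = 0.000963) and Emcn 2.75-fold lower (-1.46, standard error 0.32, adjusted p = 0.00755). Esam (-1.01), Tek (-0.93), Tie1 (-0.92), Cldn5 (-0.90) and Eng (-0.77, adjusted p = 0.0221) also fell. Kdr was at -0.84 (adjusted p = 0.0644), Flt1 at -0.13 and Pecam1 at 0.30 (adjusted p = 0.118). At 18 months 8 of 10 were lower than at 6 months (background 5.13%), led by Emcn with a 3.30-fold fall (adjusted p = 0.00351) and Cdh5 with a 3.22-fold fall (adjusted p = 0.000786). Kdr (-1.03), Esam (-0.73), Eng (-0.73), Tek (-0.71), Cldn5 (-0.62, adjusted p = 0.0471) and Flt1 (-0.59) fell less. The other 2, Tie1 and Pecam1, were at -0.49 (adjusted p = 0.110) and -0.21 (adjusted p = 0.289).

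These bone marrow falls rest on an error shared with the other groups. Fitted on the compared groups alone, 1 of the 10 genes was lower at 14 months and 0 at 18 months, where 271 and 18 of all probe sets were called. The 3 arrays of 6-month bone marrow spread widely, from 6.15 to 7.81 for Emcn, and replicate 1 there had the lowest array weight of the 18 (0.187). The 18-month count was 5 without that array and 4 without 6-month replicate 2 or without any 1 of the 3 bone marrow arrays at 18 months. Only Tek, Cdh5 and Emcn kept their 18-month call whichever array was left out, Kdr, Flt1, Eng and Esam each lost it without 1 or more of bone marrow replicates 1 and 2 at 6 months and 1, 2 and 3 at 18 months (adjusted p 0.0512 to 0.122), and Cldn5 without any of 12 of the 18 arrays (adjusted p 0.0514 to 0.149). Eng at 14 months lost its call without 6-month replicate 1 or 2 or 14-month replicate 2 or 3 (adjusted p 0.0726 to 0.114). Kdr at 14 months gained one without 6-month replicate 1 or 14-month replicate 1, with differences of -1.28 to -1.08, and Pecam1 was called higher (0.42, adjusted p = 0.0471) without 14-month replicate 2. Between 14 and 18 months in bone marrow 2 of 10 fell (background 8.23%), Pecam1 (-0.52, adjusted p = 0.00533) and Flt1 (-0.46, adjusted p = 0.0440), and the 2 ages overlapped for the remaining 8. Of all probe sets 19.1% were lower and 12.6% higher at 18 than at 14 months without overlap. Flt1 lost that call when any of 13 of the 18 arrays was left out (adjusted p 0.0503 to 0.217), and Tie1 was called higher (0.65, adjusted p = 0.0242) without bone marrow replicate 1 at 14 months.

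Replicate 1 of 14-month bone marrow stood above the other 2 arrays of its group for 9 of the 10 genes, all but Flt1. The mean of the 10 genes there was 6.75, against 6.05 and 6.17 on the other 2 arrays. The mean of 7 megakaryocyte and platelet markers was also higher there, at 9.38 against 8.19 and 8.28, and so was that of 11 mural cell markers, at 6.35 against 5.87 and 5.90. Macrophage markers (10.42 against 9.96 and 9.94) and fibroblast and progenitor markers (7.23 against 6.69 and 7.00) were higher there too. So were the means of blood stem and progenitor markers and of adipocyte markers. Erythroid (9.32 against 9.53 and 9.65) and mesothelial means were lowest there, and the neutrophil mean lay between those of the other 2 arrays. The part of these cells in the values was not tested. Without that array Kdr was also called lower at 14 than at 6 months, beside the 7 genes called with it.

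**Figure D3:**
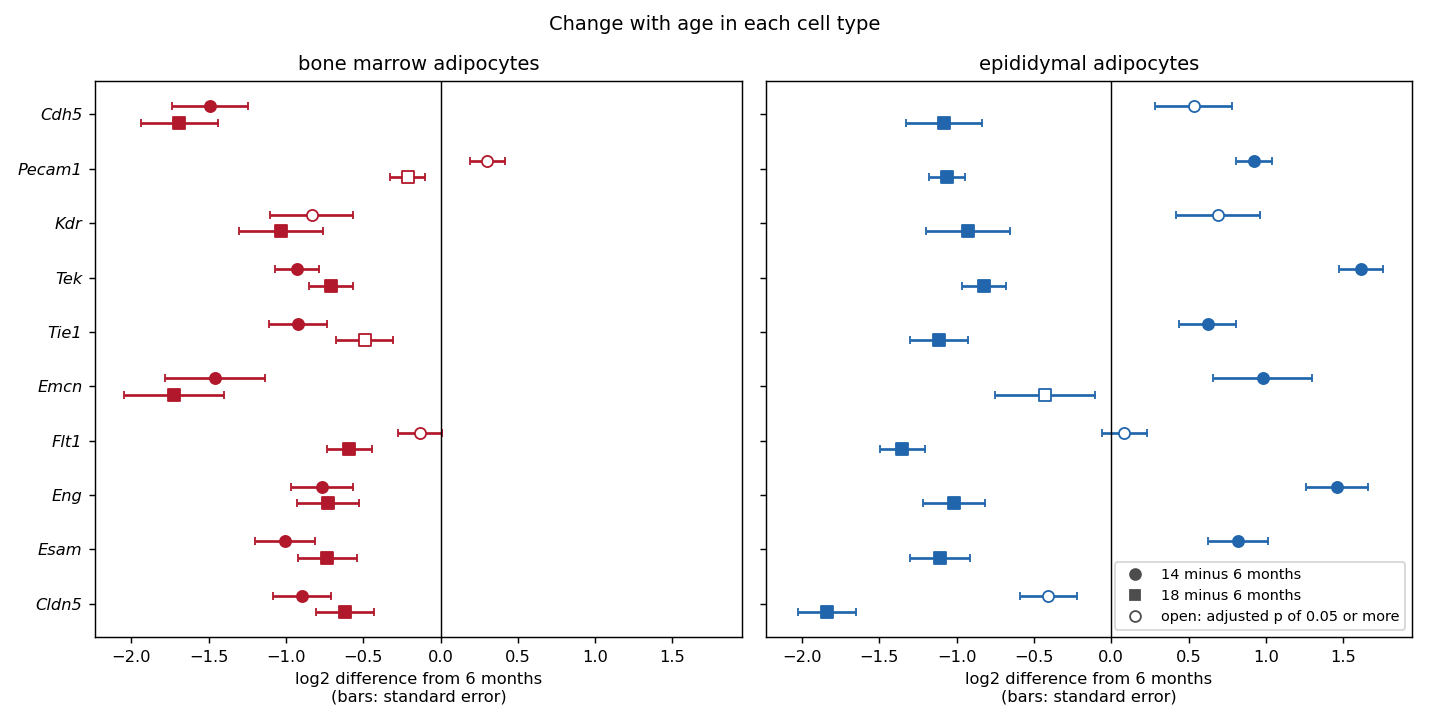
Log2 difference from 6 months (x axis, with standard error) of the 10 genes (y axis) at 14 months (circles) and 18 months (squares) in bone marrow adipocytes (left) and epididymal adipocytes (right), with open symbols at an adjusted p of 0.05 or more. At 14 months the symbols lie mostly below 0 in bone marrow (7 of 10 called lower) and above 0 in epididymal adipocytes (6 of 10 called higher), and at 18 months they lie below 0 in both.

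The 14-month change differed between the cell types for most of the genes. The difference of the changes (bone marrow change minus epididymal change) was negative and called for 8 of 10 genes (background 6.53%), and was widest for Tek (-2.55, standard error 0.20, adjusted p = 1.06e-07), Emcn (-2.44) and Eng (-2.22). It was not called for Cldn5 (-0.49, adjusted p = 0.278) and Flt1 (-0.22, adjusted p = 0.594). Pecam1 (-0.62) lost its call without bone marrow replicate 2 at 14 months (adjusted p = 0.0514), and Cldn5 gained one without bone marrow replicate 1 at 14 months (-0.74, adjusted p = 0.0446). From 14 to 18 months the difference was positive and called for 9 of 10 (background 7.74%), up to 2.66 for Tek, and Emcn was at 1.15 (adjusted p = 0.103). Kdr lost that call without bone marrow replicate 3 at 14 months (adjusted p = 0.0515). Emcn gained it without bone marrow replicate 1 at 6 or at 14 months or epididymal replicate 3 at 14 months (adjusted p 0.0159 to 0.0471).

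Between 6 and 18 months fewer genes were called. The difference of the changes was positive and called for 3 of 10 genes (background 3.49%), Cldn5 (1.22, adjusted p = 0.00747), Pecam1 (0.85, adjusted p = 0.00354) and Flt1 (0.76, adjusted p = 0.0269), each of which fell more in epididymal adipocytes. For Tek it was 0.11 (95% interval -0.31 to 0.53) and for Kdr -0.10 (95% interval -0.91 to 0.70). Emcn had the only difference below -1, at -1.29 (adjusted p = 0.0898), called without bone marrow replicate 3 at 6 months (-1.64, adjusted p = 0.0177). Flt1 lost its call without bone marrow replicate 1 at 6 months or 1 or 2 at 18 months, or epididymal replicate 2 or 3 at 6 or at 18 months (adjusted p 0.0507 to 0.0732).

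Each gene was also set against the mean of the other 9 genes on the same array. Cldn5, Tek, Eng and Pecam1 are described, a choice made after their values were seen. Cldn5 minus that mean lay between 0.0053 and 0.04 in bone marrow at 6 months, -0.17 and 0.00047 at 14 months and 0.13 and 0.43 at 18 months. In epididymal adipocytes it lay between 2.10 and 2.34, then 0.71 and 1.38, and at 18 months 1.15 and 1.53. Cldn5 thus lost ground to the others after 6 months in epididymal cells. Tek did the reverse there, at -0.81 to -0.54 at 6 months, 0.21 to 0.38 at 14 months and -0.51 to -0.26 at 18 months, while its bone marrow values stayed between -1.11 and -0.47. Eng stood between 0.41 and 0.80 at 14 months in epididymal cells and below 0 at the other ages, and at 0.56 to 1.19 in bone marrow at all ages. Pecam1 was at 0.77 to 1.38 in bone marrow at 6 months, 2.11 to 2.46 at 14 months and 1.69 to 1.90 at 18 months, and at 0.33 to 0.57 on all epididymal arrays. Other genes moved too: Cdh5 in bone marrow lay at -0.25 to 0.55 at 6 months, -0.64 to -0.38 at 14 months and -1.06 to -0.38 at 18 months. Flt1 in epididymal cells lay at 0.091 to 0.27, then at -0.63 to -0.50, and at 18 months at -0.25 to 0.02. These are descriptions with no test.

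**Figure D4:**
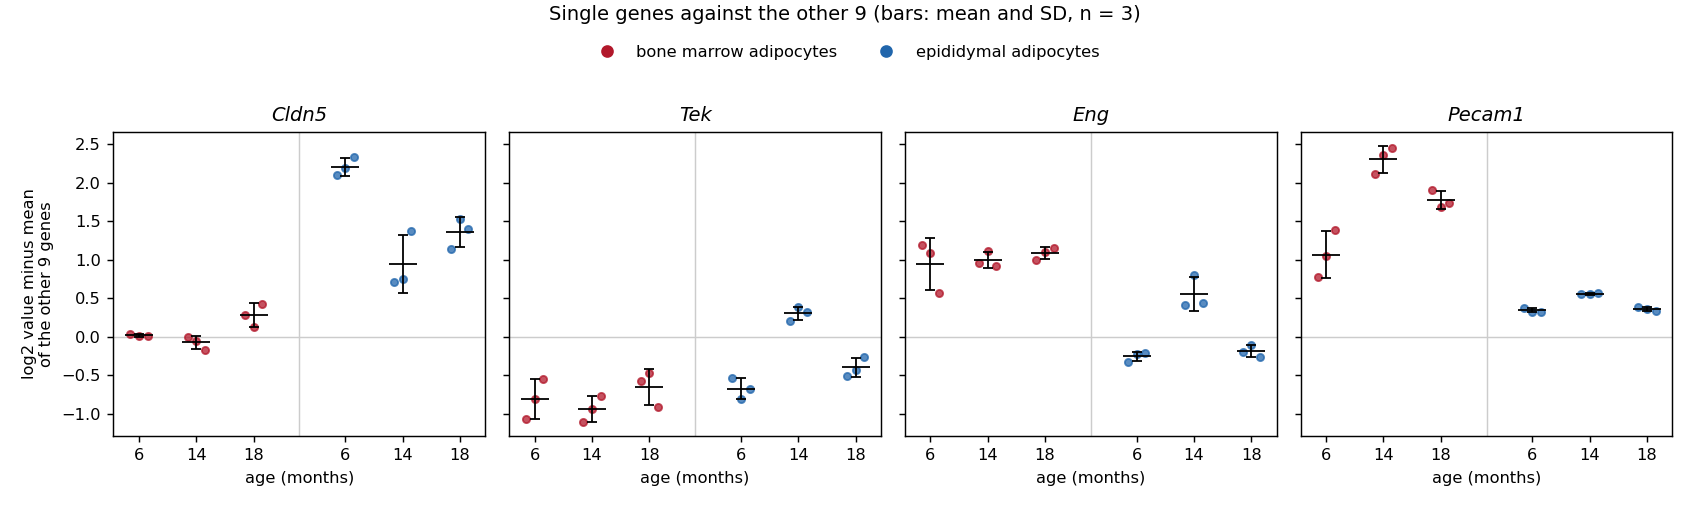
Log2 value of Cldn5, Tek, Eng and Pecam1 minus the mean of the other 9 endothelial genes on the same array (y axis) by age in months (x axis), for bone marrow (red, left) and epididymal adipocytes (blue, right), with the mean and SD (n = 3). Cldn5 drops after 6 months and Tek and Eng peak at 14 months in epididymal cells, and Pecam1 peaks at 14 months in bone marrow.

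Within each cell type most of the genes varied together across arrays. In bone marrow 40 of the 45 pairs had a positive Pearson correlation over the 9 arrays, with a median of 0.75 (range -0.22 to 0.96), and in epididymal adipocytes all 45 did, with a median of 0.93 (range 0.44 to 0.99). The arrays share age groups and pools, so these values describe the age pattern and carry no test. In bone marrow the closest pair was Cdh5 and Eng (0.96), and Pecam1 had 0.05 with the mean of the other 9. In epididymal cells the closest pair was Pecam1 and Esam (0.99), and Cldn5 was the most distant, at 0.74. Of genes outside the 10, those nearest to their mean were Epas1 (0.982), Pcolce (0.975), Limch1 (0.974), Ldhb (0.974), Lsm3 (0.968) and Nid1 (0.967) over the 9 bone marrow arrays. Over the 9 epididymal arrays they were Ptprb (0.998), Rhoj (0.996), Ifi207 (0.996), Fgl2 (0.996), Ablim3 (0.994) and H2-Aa (0.994).

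Of 25 other endothelial genes 12 were lower and 2 higher in bone marrow over the ages (median -0.94). In epididymal cells 18 rose and 1 fell at 14 months (median 0.67), and 16 fell and 0 rose at 18 months against 6 months (median -0.56). In bone marrow 8 fell and 2 rose at 14 months, and 10 fell and 1 rose at 18 months. Ptprb, the endothelial phosphatase that acts on TIE2 and VE-cadherin, was 5.35-fold lower in bone marrow over the ages (adjusted p = 2.49e-13) and rose by 1.07 in epididymal cells at 14 months (adjusted p = 0.000529). Egfl7, a secreted vessel matrix protein, rose by 1.47 there (adjusted p = 1.01e-06), Mmrn2, an endothelial matrix glycoprotein, by 1.16 and Robo4, an endothelial guidance receptor, by 0.67.

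The ligands of these receptors did not follow one course. Of 8 VEGF and angiopoietin ligands 3 were lower and 1 higher in bone marrow over the ages. Vegfd had the widest gap of the 4 VEGF genes examined, 29.8-fold (adjusted p = 8.40e-20), ahead of Vegfb (4.95-fold) and Vegfa (2.37-fold), and Vegfc was at -0.27 (adjusted p = 0.0510). In epididymal cells at 14 months Vegfa, the main ligand of Kdr and Flt1, fell by 1.52 (adjusted p = 3.29e-06) and Vegfb, a ligand of Flt1, by 0.59, while Vegfc rose by 1.47 (adjusted p = 2.72e-05) and Vegfd by 0.57. At 18 months Vegfa was lower than at 6 months in both, with a difference of -1.07 in bone marrow and -1.12 in epididymal cells.

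Partners of the receptors and junctions were mostly lower in bone marrow or not called. Of 8 receptor partners 3 were lower and 0 higher in bone marrow over the ages, among them the VEGF co-receptor Nrp1 (-2.26, adjusted p = 4.03e-16). Nrp2, its relative in lymphatic and venous endothelium, rose by 1.19 in epididymal cells at 14 months (adjusted p = 4.31e-05), and Flt4, the receptor for VEGF-C, by 0.84 (adjusted p = 0.0170). Acvrl1, which encodes ALK1, the kinase that pairs with endoglin, was at 0.22 (adjusted p = 0.193). Of 11 junction partners 8 were lower in bone marrow over the ages, such as the catenins Ctnna1 (-1.43), Ctnnd1 (-1.66) and Jup (-2.06). Ctnnb1 (-0.45) did not reach 2-fold. The 4 catenins stayed within -0.04 to 0.24 in epididymal cells at 14 months and none of them was called.

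Genes of vessel subtypes were mixed. Of 16 measured, 8 were lower and 3 higher in bone marrow over the ages, and in epididymal cells 7 rose and 1 fell at 14 months. The arterial connexin Gja5 rose by 2.15 there (adjusted p = 6.16e-07) and fell by 1.02 in bone marrow (adjusted p = 0.00529). The arterial ligand Efnb2 rose by 0.84 in epididymal cells (adjusted p = 0.000367). The connexin Gja4 (0.19, adjusted p = 0.510) and the Notch ligand Dll4 (0.21, adjusted p = 0.532) were not called.

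Markers of several other cell types moved with the epididymal change, and those of some did not. At 14 months 10 of 10 macrophage markers rose (median 2.30), as did 7 of 11 mural cell markers, with 1 lower (median 0.98), 7 of 9 fibroblast and progenitor markers (median 1.08) and 5 of 5 mesothelial markers (median 0.96). Of 8 adipocyte markers 0 rose and 1 fell (median -0.28), and the median over all probe sets was -0.04. The mean of the macrophage list spanned 7.79 to 8.19 at 6 months, 10.09 to 10.48 at 14 months and 6.44 to 6.60 at 18 months, and that of the mural list 7.51 to 7.52, then 8.09 to 8.39 and 7.12 to 7.19. The mean of the 10 endothelial genes spanned 8.44 to 8.56, then 9.16 to 9.29 and 7.38 to 7.44. That of the blood stem and progenitor list went the same way, at 6.00 to 6.23, then 6.68 to 6.84 and 5.75 to 5.85. The neutrophil mean did not, at 5.09 to 8.71, then 4.98 to 5.27 and 6.29 to 6.87. The erythroid mean was at 5.51 to 6.67, then 5.24 to 5.74 and 5.07 to 5.24. Of 7 megakaryocyte and platelet markers 1 rose at 14 months. Pdgfrb, a pericyte receptor, rose by 1.65 at 14 months (adjusted p = 7.70e-05) and the pericyte gene Rgs5 by 1.00 (adjusted p = 0.00650), while Cspg4 (NG2) fell by 0.58 and Acta2, smooth muscle actin, was at 0.19 (adjusted p = 0.480). At 18 months against 6 months 8 of 10 macrophage and 4 of 5 mesothelial markers were lower and none was higher. Of 11 mural markers 3 were lower and 1 higher, of 9 fibroblast and progenitor markers 1 was lower and 1 higher (median 0.02), and 0 of 8 adipocyte markers were called. The part of these cells in the endothelial values was not tested.

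Against epididymal cells, RNA markers of several blood cell types were higher in bone marrow, though they do not count cells. Over the ages 7 of 7 megakaryocyte and platelet markers (median 3.05), 5 of 5 erythroid markers (median 4.51) and 10 of 10 neutrophil markers (median 6.02) were higher there. So were 7 of 10 macrophage markers (median 1.47) and 4 of 9 blood stem and progenitor markers, with 1 lower (median -0.42). By contrast 7 of 11 mural and 7 of 9 fibroblast markers were lower. The macrophage list mean overlapped between the cell types at 14 months, at 9.94 to 10.42 in bone marrow and 10.09 to 10.48 in epididymal cells. It was higher in bone marrow at 6 months (9.30 to 9.59 against 7.79 to 8.19) and at 18 months (9.59 to 10.11 against 6.44 to 6.60). The megakaryocyte integrin Itga2b averaged 8.82 in bone marrow and 5.78 in epididymal cells, and the stem cell receptor Kit averaged 8.06 in bone marrow and 6.29 in epididymal cells. Procr, of the same list as Kit, went the other way, at 5.33 in bone marrow and 6.25 in epididymal cells. From 6 to 14 months in bone marrow Pecam1 was at 0.30. Over that span 5 of 10 macrophage markers rose (median 0.65) and 1 of 7 megakaryocyte markers fell (median -0.77). Of 9 stem and progenitor markers 0 were called, and the mean of that list spanned 6.33 to 6.66, then 6.15 to 6.45. Markers of other cells that fell in bone marrow against 6 months were 3 of 11 mural markers at 14 months and 4 of 11 at 18 months, 3 and 2 of 9 fibroblast and progenitor markers, and 1 and 3 of 8 adipocyte markers (median -0.65 at 18 months), with 0 higher in these lists. The part of these cells in the values of Pecam1 and the other genes was not tested.

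**Figure D5:**
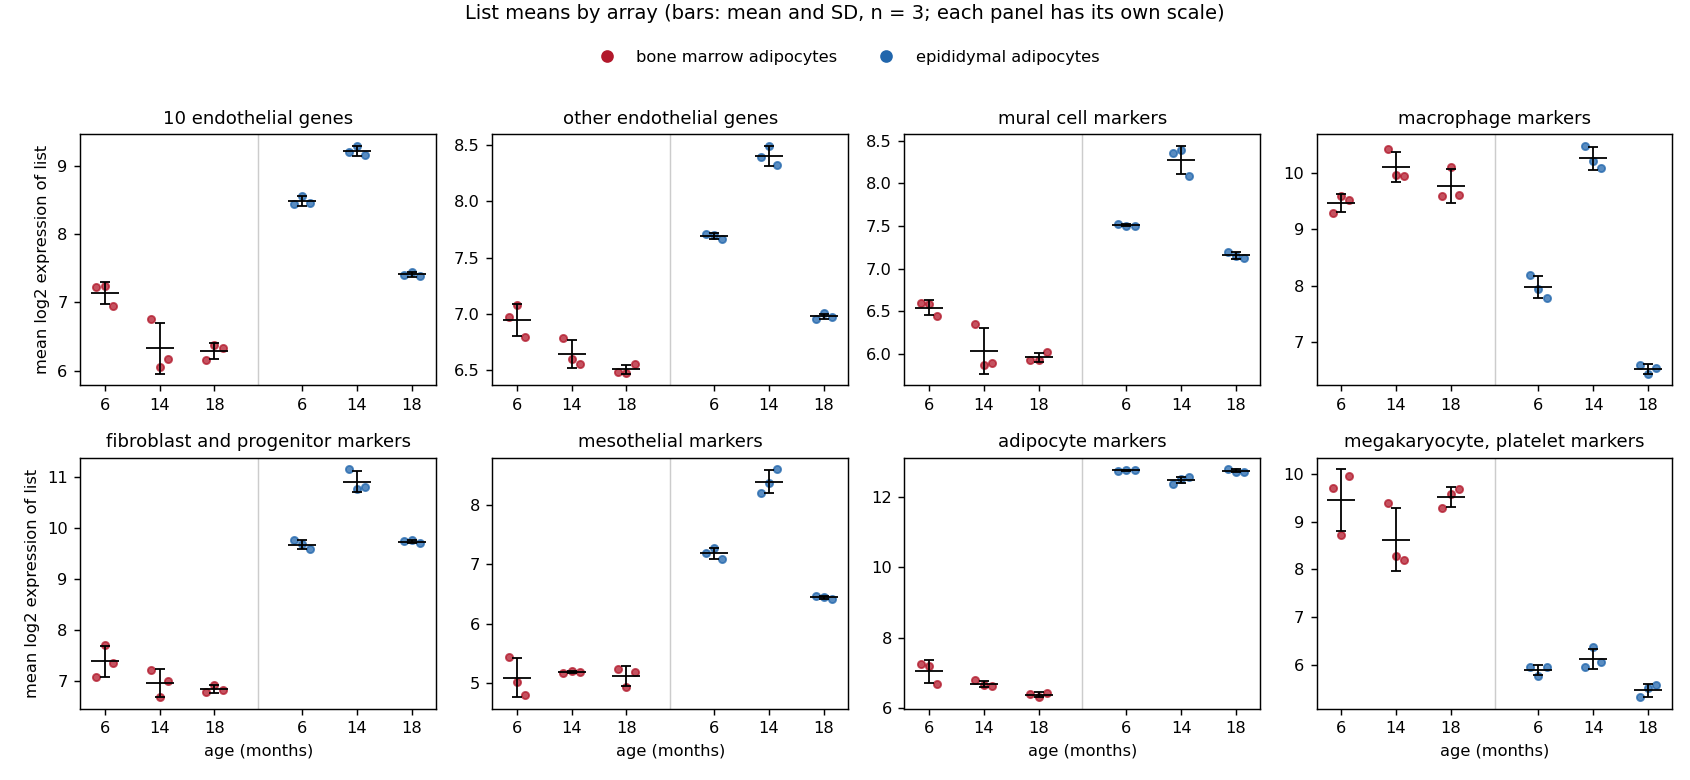
Mean log2 expression of 8 gene lists (y axis, each panel with its own scale) by age in months (x axis) for bone marrow (red, left) and epididymal adipocytes (blue, right), with the mean and SD over 3 arrays. In epididymal cells the endothelial, mural, macrophage, fibroblast and mesothelial panels are highest at 14 months, while the adipocyte panel stays between 12.36 and 12.78.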

How the data were processed

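The authors processed the scans of the Mouse Gene 1.0 ST arrays in Partek by gcRMA background correction and quantile normalization, and the deposited log2 values were analysed unchanged. The number of arrays, 3 a group, limits the precision. A linear model with 1 mean for each group was fitted to all 18 arrays (limma 3.58.1, R 4.3.3), with Benjamini-Hochberg adjusted p over the 23410 probe sets that name a gene, within each contrast. A call needs an adjusted p under 0.05 and, between cell types, also 2-fold. The same mice gave both cell types, which the model does not use. The 10 genes and all lists were chosen with earlier results of these data known. Of each other list the first 4 genes on the array could be named, and likeness names the 6 closest genes in each cell type. Alternatives changed the probe set summary, the test and its variance prior, the weighting of arrays, scaling, the arrays fitted, a replicate block, a filter on dim probe sets, the fold limit and the arrays left out. Scripts were tested on simulated data. Promoters are from RefSeq. Figures used Python 3.11.15. Raw scans were not used here.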

Additional observations from a re-analysis of the deposited data

Results flagged for a closer look

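The difference of an age change between bone marrow and epididymal adipocytes, by the interaction contrast in limma, is given where it was called. Of all probe sets 6.53% were called negative from 6 to 14 months, 7.74% positive from 14 to 18 months and 3.49% positive from 6 to 18 months. Values are the log2 change in bone marrow minus the log2 change in epididymal adipocytes. From 6 to 14 months the difference was -2.02 for Cdh5, -0.62 for Pecam1, -1.53 for Kdr, -2.55 for Tek, -1.54 for Tie1, -2.44 for Emcn, -2.22 for Eng and -1.83 for Esam. From 14 to 18 months it was 1.41 for Cdh5, 1.47 for Pecam1, 1.42 for Kdr, 2.66 for Tek, 2.17 for Tie1, 0.98 for Flt1, 2.51 for Eng, 2.20 for Esam and 1.72 for Cldn5. From 6 to 18 months it was 0.85 for Pecam1, 0.76 for Flt1 and 1.22 for Cldn5. Adjusted p ran from 4.82e-08 for Tek between 14 and 18 months to 0.0269 for Flt1 between 6 and 18 months. Each pair of these contrasts shares the arrays of 1 age. Single arrays were not tested as outliers.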

How the results depend on the processing

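Single gene results numbered 3760 over all alternatives, of which 3577 kept their direction and side of the threshold, 125 lost a call, 33 gained one and 25 changed sign, none of them called before or after. Averaging a gene's probe sets, or testing only probe sets that name a single gene, left the values of these genes unchanged, as each has 1 probe set. Under each of these settings all 130 results stayed the same. An array left out also often lay outside the compared groups. With equal ribosomal protein genes the sign turned for Pecam1 (-0.50) and Eng (-0.63) between cell types at 18 months, both under 2-fold, Flt1 in epididymal cells from 6 to 14 months (-0.14, and -0.037 with median centring), the difference of the Flt1 changes to 14 months (0.078) and that of the Kdr changes to 18 months (0.11). Repeated quantile normalization gave Eng -0.033 at 18 months. With 1 array left out, values ran on both sides of 0 between cell types for Emcn (-0.51 to 0.32) and Eng (-0.42 to 0.0031) at 6 months and Eng at 18 months (-0.028 to 0.12). In bone marrow they did so from 14 to 18 months for Cdh5 (-0.39 to 0.078), Kdr (-0.44 to 0.25), Emcn (-0.46 to 0.0094) and Eng (-0.074 to 0.23) and from 6 to 14 months for Flt1 (-0.24 to 0.041). The differences of the 6 to 18 month changes did so for Kdr (-0.35 to 0.14) and Tek (-0.014 to 0.22). Of the counts, those between 6 and 14 months in bone marrow dropped to 1 (from 7) and between 6 and 18 months to 0 (from 8) when only the compared groups were fitted, where the error has fewer arrays behind it. The 6 to 18 month count was also 4 in an ordinary linear model, 5 with array weights and 4 with equal ribosomal protein genes, and 4 to 8 with 1 array left out. Between 14 and 18 months in bone marrow the count of 2 became 1 in an ordinary linear model, with a trended robust prior, with repeated quantile normalization and with median centring, 0 with equal ribosomal protein genes, and 1 to 2 with 1 array left out. The cause was not tested. Whether equal replicate numbers mark the same pool is not stated. Deviations of same-numbered arrays correlated at -0.14 to 0.15, which with 3 arrays a group cannot settle it. With a replicate block 8 genes were called between the cell types over the ages, and 6, 10 and 6 at the single ages, as without it, and 4 and 10 in place of 3 and 9 for the differences of the 18 minus 6 and 18 minus 14 month changes. The filter on dim probe sets kept 13719 probe sets and all 10 genes.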
